A study of Mus musculus with 4 samples.

Results

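Sox4, Sox9, Sox11, Sox17 and Sox18 are 5 of the 27514 genes that the gene tables of all libraries shared, and they were followed here through the cells of mouse small-intestinal adenomas. They were taken by name, and 14 other genes of the Sox family stood beside them. The data were 4 single-cell RNA sequencing libraries, with transcripts counted by unique molecular identifiers (UMIs) on a droplet platform that reads 3′ ends, and each library held 3 to 10 tumors of C57BL/6 mice that were 11 weeks old. The ApcMin libraries came from ApcMin/+;Lef1 +/+ mice and the VApcMinL libraries from ApcMin/+;Lef1 fl/fl;Villin-Cre mice, so the Apc mutation was common to both groups and the control group carried no Cre. Villin drives Cre in the intestinal epithelium, so fibroblasts and endothelial cells are outside its reach. Each genotype had 1 library on reagent kit 2 (replicate 1) and 1 on kit 3 (replicate 2). The tumors of a library were pooled and the cells were not sorted. For genotype comparisons, p-values measure the spread among these 4 libraries. For comparisons of cell classes they rest on 1 spread shared by all 28 sums of class and library, with library as a block. Below, 4 values in a row follow the order ApcMin on kit 2, VApcMinL on kit 2, ApcMin on kit 3, VApcMinL on kit 3.

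Sox proteins bind DNA through a shared high-mobility-group (HMG) box. Sox4, Sox11 and Sox12 form the SoxC group, known from progenitor cells of many tissues. Sox9 belongs to SoxE and is a transcription factor of intestinal crypt and Paneth cells. Sox7, Sox17 and Sox18 form SoxF, known from endothelial cells, where they act in artery and lymphatic vessel formation, and Sox17 is also a factor of definitive endoderm and the fetal gut. In adenoma cells loss of Apc leaves the Wnt signal on, which β-catenin passes to Tcf and Lef factors.

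Sox genes are close relatives where they bind DNA. For Sox4, Sox9 and Sox11 the longest open reading frame was taken from the GRCm38 transcripts, and the ungapped stretch of 210 bases most alike in the 3 was found. Sox4 and Sox11, the SoxC pair, were identical at 90.5% of these bases, and Sox9 at 74.3% with Sox4 and 75.2% with Sox11. The 90 most similar bases of that stretch are shown because they carry the family resemblance, with capitals at the 66 positions where all 3 had the same base.
Sox4: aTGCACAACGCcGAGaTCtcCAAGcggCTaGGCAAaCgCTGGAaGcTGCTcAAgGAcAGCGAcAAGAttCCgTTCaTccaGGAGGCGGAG
Sox9: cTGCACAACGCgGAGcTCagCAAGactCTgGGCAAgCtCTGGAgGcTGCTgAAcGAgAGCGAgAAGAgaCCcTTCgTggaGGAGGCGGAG
Sox11: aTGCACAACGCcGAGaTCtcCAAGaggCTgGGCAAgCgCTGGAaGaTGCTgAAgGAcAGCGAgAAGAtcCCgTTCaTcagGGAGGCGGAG
The lower-case bases set Sox9 apart from the SoxC pair at most of the positions that differ. The libraries read transcripts near their 3′ ends rather than over this stretch.

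On GRCm38, Sox4 (ENSMUSG00000076431) is a single-exon gene on the minus strand at chr13:28948919-28953713, and Gm26735 overlaps it on the other strand. Sox11 (ENSMUSG00000063632), also with 1 exon and on the minus strand, lies at chr12:27334264-27342574. Sox9 (ENSMUSG00000000567) has 3 exons on the plus strand at chr11:112782224-112787760. Sox17 (ENSMUSG00000025902) is annotated with 8 transcripts on the minus strand at chr1:4490931-4497354, with Gm37587 on the other strand. Sox18 (ENSMUSG00000046470) has 2 exons on the minus strand at chr2:181669836-181671640.

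Cells were barcodes with at least 1000 UMIs and at most 20% mitochondrial UMIs, 12400 in all and 2146 to 4449 per library, with median depths of 8453 to 25465 UMIs, from totals of 44660305 to 128247396 UMIs per library. The mitochondrial limit removed 62.9% of the barcodes in ApcMin replicate 2 and 27.3% to 30.5% in the other libraries. The kit 2 libraries shared 18 barcodes. Marker gates that use no Sox gene gave 3567 adenoma, 690 crypt, 547 secretory (goblet or Paneth), 76 tuft, 2971 enterocyte, 249 fibroblast and 198 endothelial cells, and in the kit 3 libraries the endothelial gate held only 9 and 8 cells. The adenoma gate asked for UMIs of at least 2 of Notum, Nkd1, Wif1, Dkk2, Dkk3 and Prox1, and the summed level of these 6 genes in it varied from 379 to 1606 CPM (UMIs of a gene scaled to 1000000 UMIs of the summed cells). Crypt cells had at least 2 of Olfm4, Lgr5, Ascl2, Slc12a2, Smoc2 and Rgmb and no UMI of any adenoma marker.

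The deleted gene did not separate the groups. Lef1 stood at 8.70, 27.6, 33.7 and 22.0 CPM in adenoma cells, so the library labelled VApcMinL replicate 1 was above its ApcMin partner and the one labelled VApcMinL replicate 2 below. A 3′ tag outside the deleted part would still be counted, and the part deleted is not given in the sources used here. Although all mice were labelled male, Xist, the RNA of the inactive X chromosome, was at 1143 and 323 CPM in adenoma cells of the libraries labelled VApcMinL and at 0.0777 and 0.0675 in those labelled ApcMin. Both facts touch every genotype comparison given below. Xist followed the genotype label in both kit pairs, so a difference in the sex of the cells cannot be told apart from genotype in any of them.

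Across the 7 cell classes each Sox gene had an order of its own. Levels are in CPM of the summed class, which cannot tell fewer cells with the transcript from less transcript per cell, so shares of cells follow. Sox4 was highest in tuft cells (686 ± 166, SD, n = 4 libraries), adenoma cells (438 ± 52.8) and endothelial cells (387 ± 58.4), whose ranges overlapped from one to the next. Fibroblasts (214 ± 38.9) and secretory cells (170 ± 73.1) lay below these 3 without overlap. Crypt cells (193 ± 81.8) lay below tuft and adenoma cells, but their highest value of 303 met the lowest endothelial value of 302. Enterocytes (24.1 ± 21.8) were below all other classes. Sox9 was highest in tuft cells (321 ± 64.8), without overlap with the next class. Adenoma (160 ± 67.4), secretory (125 ± 35.4) and crypt cells (91.3 ± 17.5) overlapped one another in turn for Sox9, and all 3 stood above endothelial cells, enterocytes and fibroblasts, whose means did not exceed 21.2. Sox17 stood at 290 ± 92.6 in adenoma cells and 275 ± 121 in endothelial cells, with overlapping ranges that were both above those of the other 5 classes, of which secretory cells came next at 80.9 ± 37.2. In VApcMinL replicate 2, 1 endothelial cell held 22 of the 25 Sox17 UMIs of its class. Sox11 was highest in adenoma cells (26.7 ± 9.46), yet its range met that of endothelial cells because of 3 UMIs in the 8 endothelial cells of VApcMinL replicate 2. Sox18 was highest in endothelial cells (204 ± 144), and every other class had a mean of at most 2.39.

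**Figure D1:**
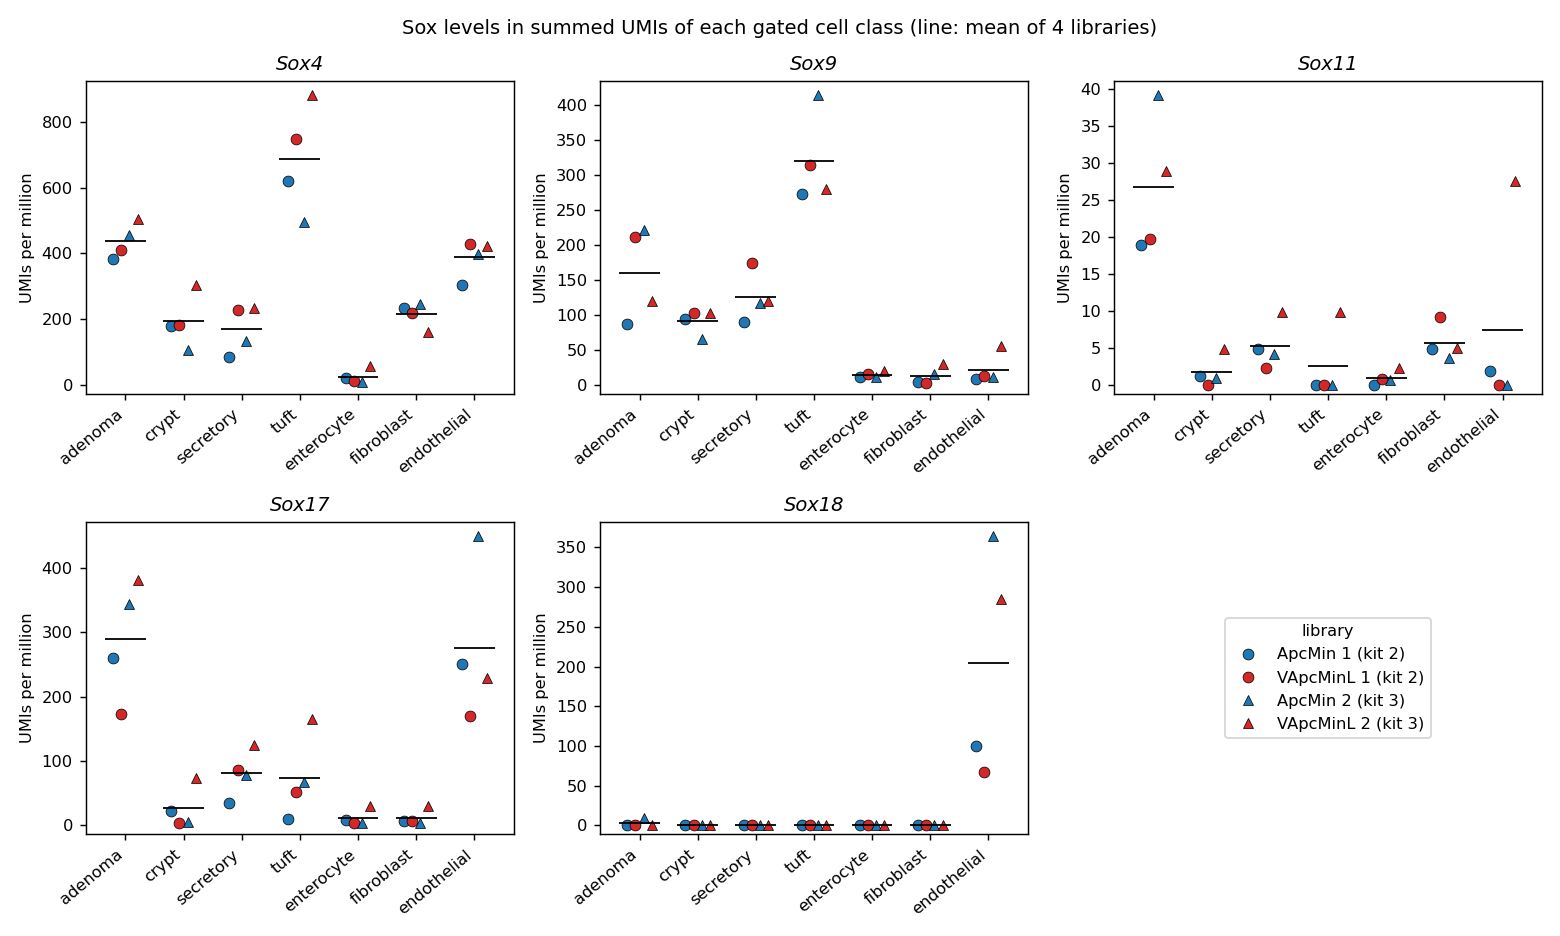
Level of each Sox gene (vertical axis, CPM, linear) in the 7 marker-gated cell classes (horizontal axis), with 1 point per library and a line at the mean of 4 libraries. Sox17 is high in adenoma and in endothelial cells, Sox9 peaks in tuft cells at 321 on average, and Sox18 is near 0 outside endothelial cells.

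The comparison of adenoma with crypt cells asks which Sox genes distinguish the gated adenoma cells from gated crypt cells of the same tissue. The adenoma gate asked for Wnt antagonists and Prox1, and the crypt gate barred them. Sox genes that follow these markers would differ through this selection too, and its part in the differences was not tested. Sox17, Sox11 and Sox4 were higher in adenoma cells in 4 of 4 libraries. Sox17 had 260, 173, 345 and 381 CPM in adenoma cells against 22.8, 3.89, 5.01 and 73.3 in crypt cells. The groups did not overlap, and the highest crypt value was that of VApcMinL replicate 2, whose crypt cells also had the most Lef1 (2.52 CPM against 0 to 1.17 in the others) and the most Msx1 (19.0 against 0.228 to 4.65), although no adenoma gate marker was counted in them. The part of these genes in the crypt values was not tested. The fitted log2 difference of Sox17 was 3.70 ± 0.44 (SE), a 13.0-fold higher level (edgeR quasi-likelihood test with library as a block, Benjamini-Hochberg adjusted p = 1.06e-07).

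Sox11 is a SoxC factor known chiefly from the embryo and nervous system. It had 19.0, 19.7, 39.1 and 28.9 CPM in adenoma cells and 1.16, 0, 0.912 and 4.85 in crypt cells. The fitted difference was 3.88 ± 0.42 on the log2 scale, or 14.8-fold (edgeR adjusted p = 2.37e-08), and the crypt side rests on few UMIs, with 5 in ApcMin replicate 1 and 0 in VApcMinL replicate 1. Sox4, its SoxC relative, was already abundant in crypt cells, at 180, 183, 106 and 303 CPM, and reached 384, 409, 456 and 503 in adenoma cells. The lowest adenoma value exceeded the highest crypt value, and the difference was 1.12 ± 0.29 on the log2 scale, or 2.17-fold (edgeR adjusted p = 0.00273).

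Sox9 did not pass the threshold. Its levels were 86.1, 211, 222 and 119 CPM in adenoma cells and 94.1, 102, 65.9 and 103 in crypt cells, so the ranges overlapped and 3 of 4 libraries had more in adenoma cells. The difference was 0.57 ± 0.24 (95% interval 0.09 to 1.05 on the log2 scale, edgeR adjusted p = 0.0661). It passed without ApcMin replicate 1 (0.92, adjusted p = 0.0173) and without VApcMinL replicate 2 (0.76, adjusted p = 0.0183). Sox18 gave 2.54 ± 1.49 (edgeR adjusted p = 0.195), which turned to -1.36 without ApcMin replicate 2. Thus 3 of the 5 genes were called, all higher, in a contrast where 37.3% of 12609 genes were called, 19.8% as higher and 17.5% as lower in adenoma cells.

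**Figure D2:**
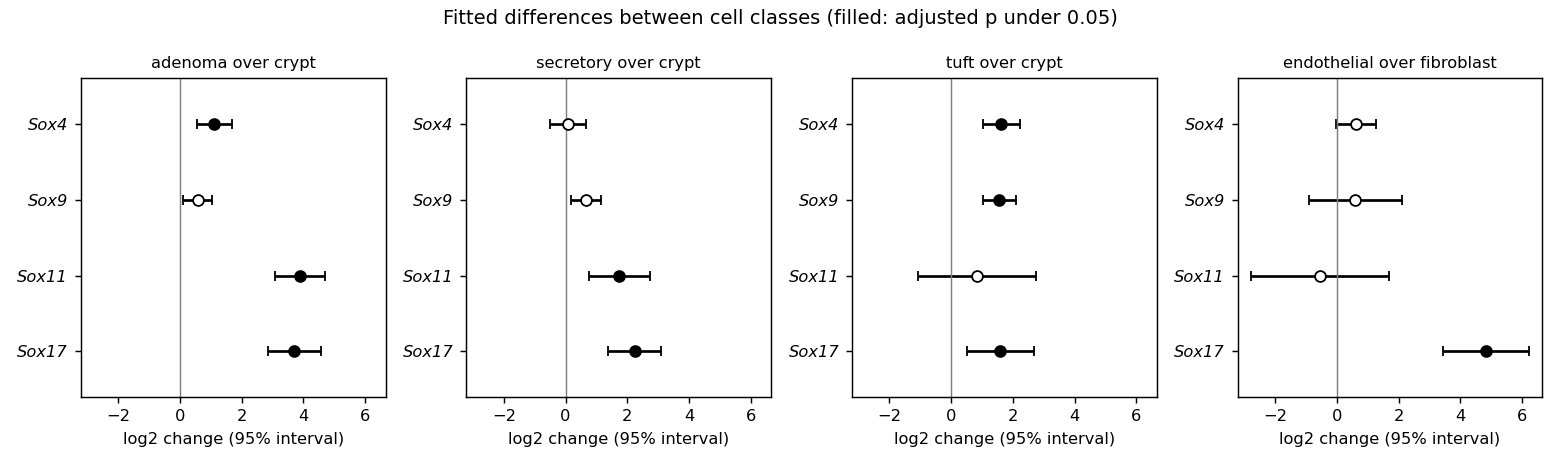
Fitted log2 difference with its approximate 95% interval (horizontal axis) for Sox4, Sox9, Sox11 and Sox17 (rows) in the 4 comparisons of cell classes, with filled points for adjusted p under 0.05. Sox17 and Sox11 lie near 3.70 and 3.88 in adenoma over crypt cells, and the interval of Sox9 there runs from 0.09 to 1.05.

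Shares of cells with a UMI were taken after 1000 UMIs had been drawn from every cell, with enterocytes as the background class (median depths of adenoma, crypt and enterocyte cells before the draw were 18551 to 34356, 16746.5 to 37401 and 8921 to 26298 UMIs). For Sox17 29.2% of adenoma cells had a UMI in VApcMinL replicate 2, 27.0% in ApcMin replicate 2, 21.0% in ApcMin replicate 1 and 17.4% in VApcMinL replicate 1. In crypt cells the share of Sox17 was 0.917% to 7.63%, and in enterocytes 0.277% to 0.708%. For Sox4 29.2% to 38.6% of adenoma cells had a UMI, against 9.17% to 25.0% of crypt cells and 0.194% to 2.41% of enterocytes. For Sox9 the shares were 9.53% to 17.8% in adenoma, 4.59% to 12.1% in crypt and 0.680% to 2.12% in enterocyte cells. Sox11 was found in 2.36% to 4.59% of adenoma cells and in no crypt cell after the draw, which at this depth allows up to 1.27% to 2.75% of cells with a UMI depending on the library. At full depth 0% to 6.36% of crypt cells had a Sox11 UMI, the most in VApcMinL replicate 2. At full depth the shares in adenoma cells were 93.2% to 96.8% for Sox4, 67.6% to 94.4% for Sox17, 62.1% to 80.8% for Sox9 and 10.6% to 30.0% for Sox11. The full-depth shares in enterocytes were 7.09% to 17.7% for Sox4, 4.23% to 16.1% for Sox17, 7.48% to 19.8% for Sox9 and 0% to 1.84% for Sox11. In crypt cells they were 67.9% to 85.2% for Sox4, 2.75% to 30.9% for Sox17 and 63.9% to 70.6% for Sox9, so the ranges of Sox9 in adenoma and crypt cells overlapped. The 250 Sox11 UMIs of VApcMinL replicate 1 came from 63 of 592 adenoma cells, 1 of which held 35.

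**Figure D3:**
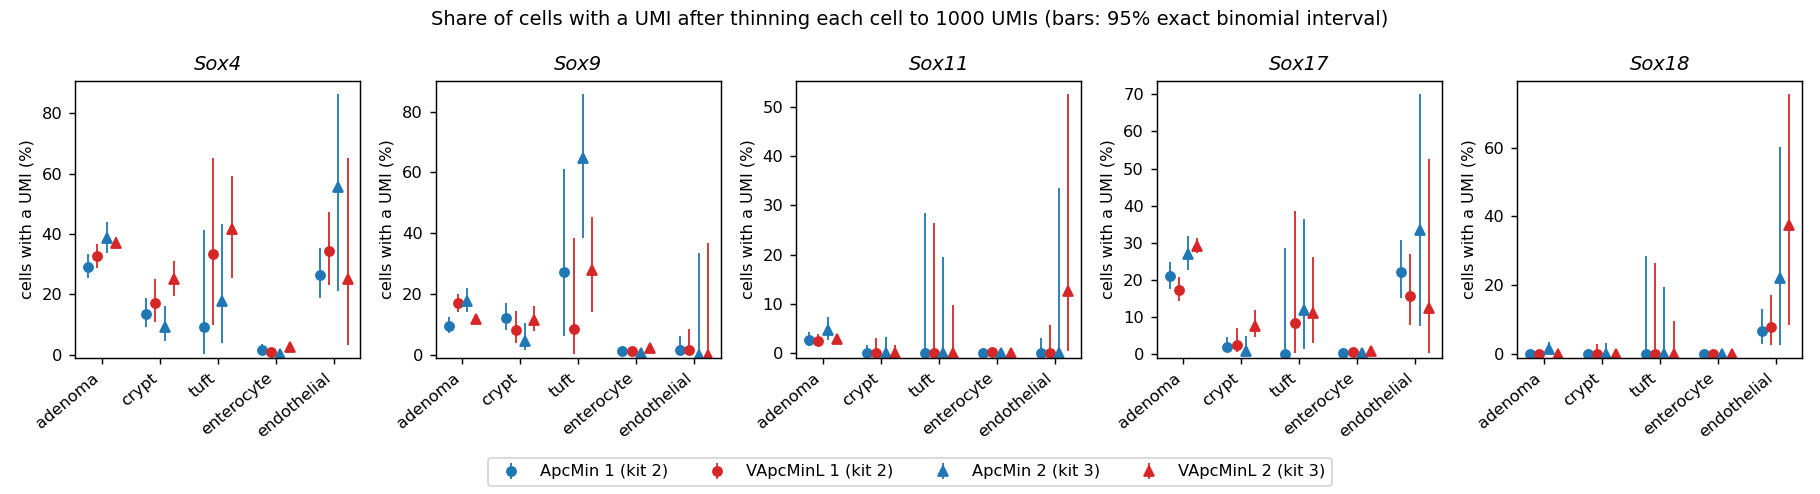
Percentage of cells with at least 1 UMI of each gene after every cell was thinned to 1000 UMIs (vertical axis), by cell class (horizontal axis) and library, with exact binomial 95% intervals that cover counting error only. For Sox17, the adenoma cells of all libraries sit between 17.4% and 29.2%, above the 0.917% to 7.63% of crypt cells.

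Sox4 and Sox11 were both higher in adenoma cells, and RefSeq's promoter table (GRCm38.p6) held these 2 of the 5 genes. The 200 bases from 250 to 51 before each start site are given 5′ to 3′ on the gene's strand, with capitals at CCAAT read on either strand. The Sox4 window is chr13:28953750-28953949 and the Sox11 window chr12:27342769-27342968, both on the minus strand.
Sox4: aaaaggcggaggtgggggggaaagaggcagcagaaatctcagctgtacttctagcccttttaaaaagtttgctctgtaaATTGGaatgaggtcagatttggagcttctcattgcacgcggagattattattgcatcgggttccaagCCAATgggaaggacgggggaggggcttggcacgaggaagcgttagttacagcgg
Sox11: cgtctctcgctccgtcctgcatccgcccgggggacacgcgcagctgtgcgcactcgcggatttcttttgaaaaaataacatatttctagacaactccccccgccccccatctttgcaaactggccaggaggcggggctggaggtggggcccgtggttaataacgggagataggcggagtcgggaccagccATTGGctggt
The Sox4 window held 2 CCAAT matches and the Sox11 window 1, and 28.4% of the 32851 promoters of the table held at least 1 in the same window. The Tcf/Lef words made of CTTTG followed by AA, AT, TA or TT, searched on both strands, were in neither window and in 12.4% of all. A match here is a description of letters, not of a binding site.

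Among adenoma cells the Sox levels differed by state, given here as values without a test. Cycling adenoma cells, defined by proliferation genes, had less Sox4, Sox9, Sox11 and Sox17 in CPM than the other adenoma cells in 4 of 4 libraries. Sox4 was at 337, 316, 366 and 438 in cycling cells and at 438, 476, 529 and 575 in the others. The ratio of cycling to other cells ranged from 0.663 to 0.769 for Sox4, 0.706 to 0.840 for Sox9, 0.408 to 0.735 for Sox11 and 0.767 to 0.900 for Sox17, and cycling cells had the higher median depth (25876 to 47196 UMIs against 16233 to 29706). Adenoma cells with a UMI of Msx1, a homeobox gene, had more Sox17 in 4 of 4 libraries, with 279, 188, 352 and 390 against 192, 166, 339 and 302 CPM. Sox11 was also higher in Msx1-positive cells of 4 of 4 libraries, by 1.10 to 4.68 times, whereas Sox9 was lower there in 3 of 4. Cells with a UMI of the Paneth gene Lyz1 had more Sox17 (262, 208, 391 and 397 against 259, 151, 303 and 346) and less Sox4, by ratios of 0.889 to 0.942. In VApcMinL replicate 1 Sox11 stood at 2.42 in Lyz1-positive and 30.9 in Lyz1-negative adenoma cells, the widest gap of the libraries for that split. The Msx1 ratio of 4.68 came from the same library, where 6 of 592 cells held at least as many of the 250 Sox11 UMIs as all the others. Msx1-positive cells were deeper in every library (medians 20035.5 to 40069 against 17613 to 29583 UMIs). So were Lyz1-positive cells (21589 to 39860 against 16408 to 30173.5), and the part of depth was not tested.

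Secretory and tuft cells were compared with crypt cells because Sox9 is a factor of Paneth cells and Sox4 is tied to tuft and endocrine progenitors. Unlike the crypt gate, their gates did not bar cells with adenoma markers, and 240 of 547 secretory and 59 of 76 tuft cells had at least 1 such UMI. The adenoma gate asked for 2 different markers, so 1 such UMI does not by itself name an adenoma cell. In tuft cells up to 4 of the 6 markers had no UMI in a library, and which marker gave the UMI was not separated. In secretory over crypt cells edgeR called Sox17 (2.24 ± 0.44, 4.73-fold, adjusted p = 0.000339) and Sox11 (1.74 ± 0.50, adjusted p = 0.0103) higher, each in 4 of 4 libraries, where 28.2% of genes were called and 15.6% were higher. Sox17 was at 34.3, 86.7, 77.8 and 125 CPM in secretory cells. Sox9 (0.65 ± 0.25, adjusted p = 0.0507) and Sox4 (0.08 ± 0.29, interval -0.49 to 0.65, adjusted p = 0.887) did not pass. Sox9 passed without ApcMin replicate 1 (adjusted p = 0.0392) and without VApcMinL replicate 2 (0.0345).

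Both calls rested on the cells with an adenoma marker. Secretory cells with such a UMI had 68.1, 126, 121 and 172 CPM of Sox17, and those without had 8.49, 15.2, 15.3 and 20.9. Of the 75 Sox11 UMIs, 67 were in the former. Without the marker-positive cells, a comparison added after the values were seen, the Sox17 difference from crypt cells was -0.15 (edgeR adjusted p = 0.876) and that of Sox11 0.11 (adjusted p = 0.956). Sox4 was then called lower in secretory than in crypt cells, at -1.23 ± 0.34 (adjusted p = 0.00750), with 63.1, 76.2, 40.0 and 74.3 CPM against 180, 183, 106 and 303. Sox9 was at 0.11 (adjusted p = 0.820). The cells with a marker UMI were also deeper, with median depths of 17107 to 33275.5 UMIs against 8467 to 15467.5, and the part of depth was not tested.

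Within the secretory gate, where a cell could pass both the Paneth and the goblet gate, Paneth cells had more Sox17 than goblet cells in every library, at 45.9, 236, 123 and 164 against 24.6, 33.5, 30.1 and 83.0 CPM. The summed adenoma markers moved with it, at 102, 250, 230.2 and 233 CPM in Paneth and 22.8, 172, 41.7 and 135 in goblet cells, and their part in the difference was not tested. For Sox9 the means of Paneth (118 ± 28.1) and goblet cells (130 ± 34.3) were within their spread. Sox4 in Paneth cells varied from 72.6 in ApcMin replicate 1 to 351 in VApcMinL replicate 1, a wider range than in goblet cells (83.0 to 167).

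In tuft cells, chemosensory cells marked here by genes such as Dclk1 and Trpm5, Sox9 was at 273, 315, 414 and 281 CPM, above every crypt value. The difference was 1.56 ± 0.28 on the log2 scale, or 2.94-fold (edgeR adjusted p = 0.000125), in a contrast where 23.5% of genes were called and 11.1% were higher in tuft cells. Sox4 was at 619, 749, 495 and 881, a difference of 1.62 ± 0.31 or 3.07-fold (adjusted p = 0.000275). Sox17 passed at 1.60 ± 0.55 (adjusted p = 0.0349) with 9.11, 51.0, 67.1 and 166, higher in 3 of 4 libraries, and lost the call without VApcMinL replicate 1 (adjusted p = 0.119) or ApcMin replicate 2 (0.122). Sox11 was listed at 0 in 3 libraries and was not called (0.84 ± 0.97, adjusted p = 0.604). The Sox4 UMIs of tuft cells were uneven over cells, as 1 cell held 50 of 68 UMIs in ApcMin replicate 1, 59 of 88 in VApcMinL replicate 1, 96 of 177 in ApcMin replicate 2 and 92 of 537 in VApcMinL replicate 2. At full depth 45.5%, 75.0%, 58.8% and 77.8% of tuft cells had a Sox4 UMI, against 78.9%, 80.3%, 67.9% and 85.2% of crypt cells. Tuft cells were shallower, with median depths of 7462 to 11500.5 UMIs against 16746.5 to 37401. After thinning the Sox4 shares were 9.09%, 33.3%, 17.6% and 41.7% in tuft and 13.5%, 17.2%, 9.17% and 25.0% in crypt cells, with overlapping ranges.

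For Sox9, tuft cells with and without an adenoma marker UMI had overlapping levels, although few cells had none. Tuft cells with a marker UMI had 263, 312, 434 and 272 CPM of Sox9 and the 17 without had 321, 325, 294 and 323, and Sox9 remained higher than in crypt cells without the marker-positive cells (1.39, edgeR adjusted p = 0.0336). For Sox4 the same split gave 746, 893, 558 and 1023 against 0, 203, 118 and 176. For Sox17, 131 of 132 UMIs were in marker-positive tuft cells. Without those cells neither gene was called (Sox4 -0.80, adjusted p = 0.410, and Sox17 -2.70, adjusted p = 0.516), in a comparison that leaves 3 to 5 tuft cells per library. This comparison too was added after the values were seen. The 17 cells held 62 UMIs of Sox9, 29 of Sox4 and 1 of Sox17, and whether the genes differ in this split was not tested.

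**Figure D4:**
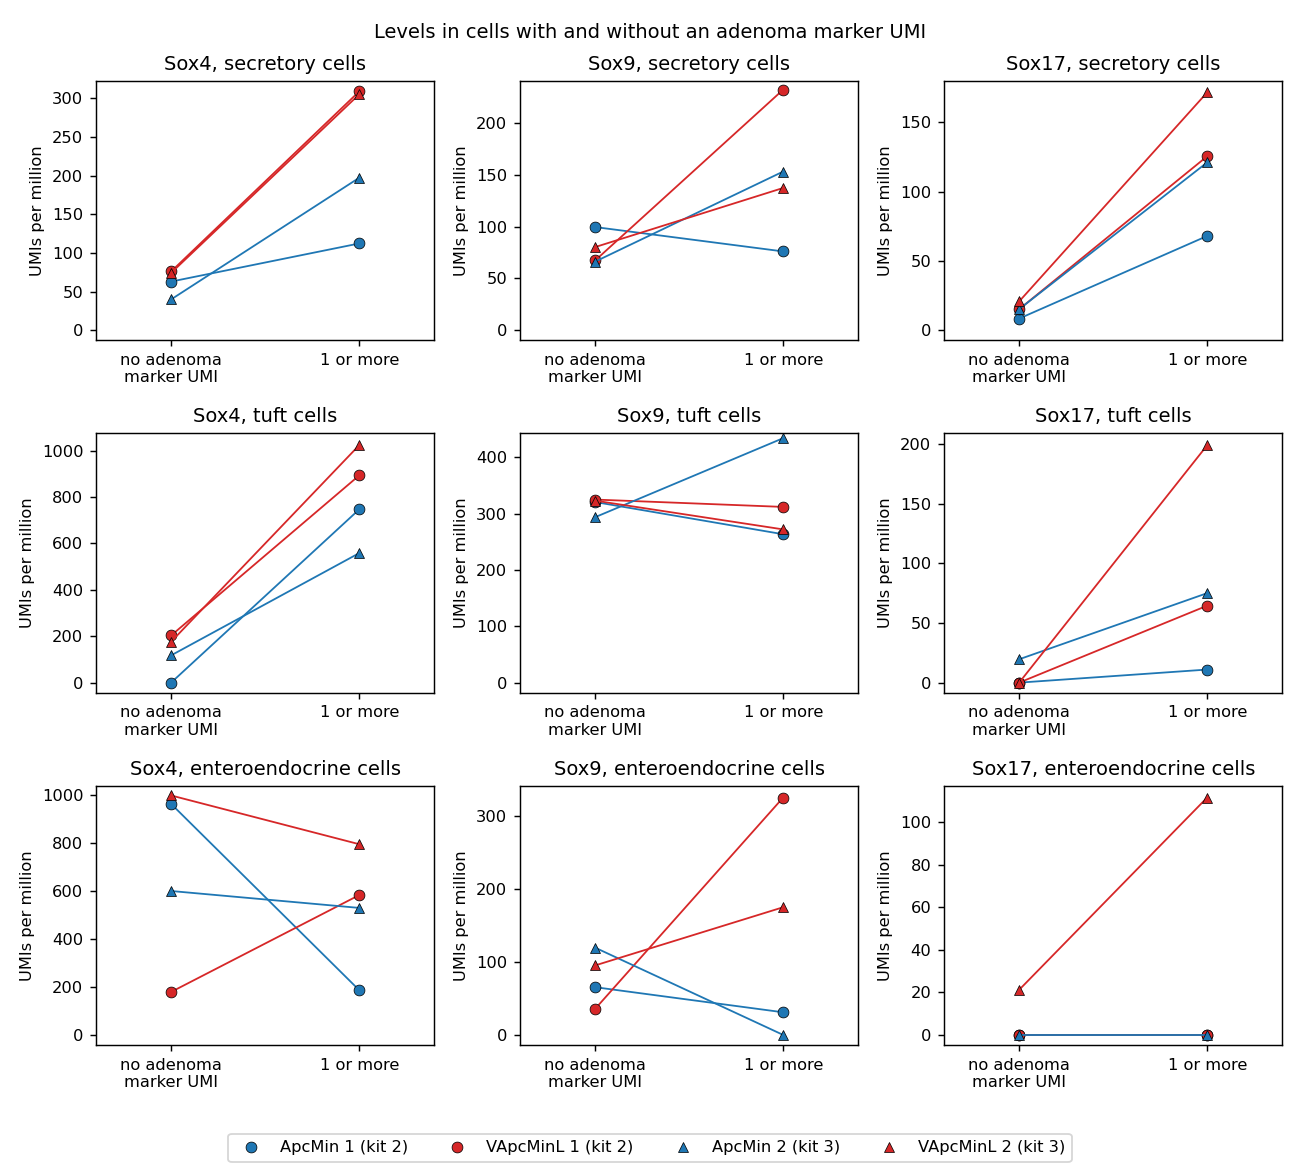
Levels of Sox genes (vertical axes, CPM) in gated cells with no adenoma marker UMI and with 1 or more (horizontal axes), with a line joining the 2 values of each library. Sox17 in secretory cells is at 8.49 to 20.9 without and 68.1 to 172 with a marker, while Sox9 in tuft cells is at 294 to 325 without and 263 to 434 with a marker.

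Enteroendocrine cells, the hormone cells of the gut, were few (74) and entered no test. Their Sox4 level was 641, 423, 580 and 840 CPM, and 3 of these 4 values were within the range of tuft cells, with that of VApcMinL replicate 1 below it. Here the split by adenoma marker gave no single direction, with 186, 582, 528 and 793 in cells with a marker UMI and 961, 179, 599 and 996 in those without. Sox17 had no UMI in the enteroendocrine cells of 3 libraries and 90.7 CPM in VApcMinL replicate 2, from 37 UMIs of which 35 were in cells with an adenoma marker.

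Endothelial cells were compared with fibroblasts as the other stromal class. Sox17 was at 251, 170, 450 and 230 CPM in endothelial cells and at 7.18, 6.88, 3.62 and 29.8 in fibroblasts. The groups did not overlap, and the difference was 4.83 ± 0.71 on the log2 scale, or 28.4-fold (edgeR adjusted p = 5.02e-06). In VApcMinL replicate 2, 1 of the 8 endothelial cells held 22 of the 25 Sox17 UMIs, so that value rests mostly on 1 cell. In ApcMin replicate 2, 1 cell held 20 of 42. The summed level of 5 epithelial genes, such as Epcam, ranged from 182 to 2298 CPM in endothelial cells, and its part was not tested. Sox18 had 99.5, 67.4, 364 and 285 CPM, from 142 UMIs in all, and no UMI in the 249 fibroblasts. Against the level that 3 counts over all fibroblasts would give, 1.48 CPM, its pooled endothelial level of 131 was at least 88.3-fold higher (edgeR adjusted p = 2.80e-05). Both SoxF genes were thus called, where 21.2% of genes were called 9.22% higher and 12% lower in endothelial cells.

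The kit 3 libraries had the higher Sox18 values, from 9 and 8 cells. In them 1 cell held 21 of 34 Sox18 UMIs in ApcMin replicate 2 and 1 cell held 10 of 31 in VApcMinL replicate 2. After thinning, 6.84% and 7.81% of endothelial cells had a Sox18 UMI in the kit 2 libraries and 22.2% and 37.5% in the kit 3 libraries, with exact binomial intervals of 2.81% to 60.0% and 8.52% to 75.5% for the latter. Sox4 (0.63 ± 0.33, interval -0.01 to 1.28, edgeR adjusted p = 0.197), Sox9 (0.60 ± 0.77, adjusted p = 0.673) and Sox11 (-0.54 ± 1.13, adjusted p = 0.818) were not called between these classes. Fibroblasts held Sox4 at 234, 218, 246 and 159 CPM, above the background of enterocytes in every library.

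The Sox17 of adenoma cells stood beside endothelial markers that were mostly near 0. A cell that passed the endothelial gate could not be called an adenoma cell, so low levels of that gate's markers are in part set by the gates. In all adenoma cells Pecam1 was at 0.337 to 1.74, Kdr at 0.0789 to 0.699, Emcn at 0.135 to 1.17 and Ptprb at 0.172 to 1.17 CPM, and Plvap at 0.0937 to 5.21. Cdh5, which encodes VE-cadherin, was at 42.6 to 79.1 and Flt1, a VEGF receptor, at up to 87.3 in the same cells. Of the 7 endothelial gate markers, then, 2 were present at some level in adenoma cells and 5 were near 0.

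Sox18 was nearly absent from adenoma cells except in ApcMin replicate 2, where 136 UMIs came from 26 of 370 cells, up to 21 in a single cell. The other libraries had 0, 4 and 4 UMIs. In these 26 cells, which by the gates could not have passed as endothelial, Pecam1, Kdr, Emcn and Ptprb had 0 UMIs and Plvap 1. The other 2 endothelial gate markers were present, Flt1 at 148 CPM against 81.7 in the Sox18-negative adenoma cells of that library and Cdh5 at 90.6 against 75.7. They differed from the other 344 adenoma cells of that library in genes chosen after their values were seen and given without a test. Dkk2, a Wnt antagonist, was at 92.2 against 15.7 CPM, Gas1 at 361 against 43.8 and Msx1 at 116 against 37.9. Sox17 was at 423 against 338 and Sox11 at 55.0 against 37.7, whereas Sox4 was lower, at 259 against 474. Secretory genes were low in them, with Lyz1 at 3.23 against 199 and Agr2 at 21.0 against 980, and Epcam was at 1226 against 2092. These cells were seen in number in 1 library only, so nothing is said of their genotype.

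Between genotypes no Sox gene was called in adenoma, crypt or endothelial cells. In adenoma cells edgeR called 0 of 12931 genes with kit as a block (33 had an unadjusted p under 0.05, and DESeq2 called 3). Of the 5 genes, 4 passed the expression filter there, all with adjusted p = 1.00. Sox4 differed by 0.11 ± 0.21 between VApcMinL and ApcMin (interval -0.30 to 0.53 on the log2 scale), Sox11 by -0.20 ± 0.21 (-0.61 to 0.21), Sox17 by -0.22 ± 0.30 (-0.81 to 0.36) and Sox9 by 0.19 ± 0.56 (-0.90 to 1.29). The groups overlapped for all 4, while they did not for 9.83% of all genes.

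The kit pairs often went opposite ways. For Sox9 in adenoma cells the log2 difference of VApcMinL minus ApcMin was 1.17 with kit 2 and -0.79 with kit 3, and Lef1 itself gave 1.53 and -0.51. Sox17 gave -0.72 and 0.25 in adenoma cells. In crypt cells, where 3 of the 5 genes passed the filter and 0.00938% of 10656 genes were called (1 gene, Xist; 195 had an unadjusted p under 0.05 and DESeq2 called 1), Sox17 gave -2.46 and 3.68 and Sox4 -0.02 and 1.45. The fitted crypt difference was 0.74 ± 0.35 for Sox4 and 0.34 ± 0.20 for Sox9 (both edgeR adjusted p = 1.00). The groups of these 2 genes did not overlap, as was so for 16.3% of all genes in crypt cells.

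In endothelial cells, where 3 of the 5 genes passed the filter, 0.0513% of 3897 genes were called (0.0257% in each direction), namely Xist and a Ccl21a gene (ENSMUSG00000094686, which has near-identical copies; -2.41, edgeR adjusted p = 0.0179), while 126 had an unadjusted p under 0.05 and DESeq2 called 2. Sox17 had the same direction in both pairs there, at -0.63 and -0.95, and Sox18 at -0.60 and -0.35. The fitted difference of Sox17 was -0.78 ± 0.32 (edgeR adjusted p = 0.998) and that of Sox18 -0.50 ± 0.36 (adjusted p = 0.998). The groups did not overlap for Sox17 and Sox4, as was so for 26% of all genes there. Villin-Cre does not act in these cells, and the kit 3 pair rests on 9 against 8 of them. In that pair 1 cell held 20 of 42 Sox17 UMIs in ApcMin and 1 held 22 of 25 in VApcMinL.

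**Figure D5:**
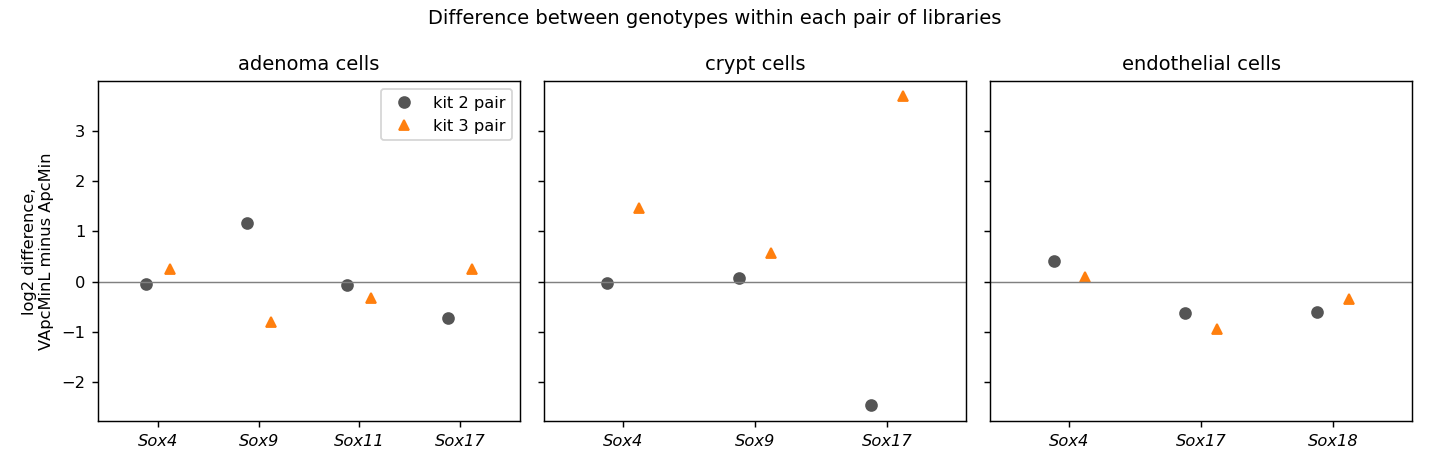
Log2 difference of VApcMinL minus ApcMin (vertical axis) within the kit 2 pair (circles) and the kit 3 pair (triangles) of libraries for each gene in adenoma, crypt and endothelial cells. For Sox9 in adenoma cells the pairs lie at 1.17 and -0.79, and for Sox17 in endothelial cells at -0.63 and -0.95.

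Of the 14 other Sox genes, 6 passed the filter in the class comparisons, and in adenoma over crypt cells 4 were called higher and 1 lower (median log2 difference 1.88 over the 6, against 0.02 over all genes). Over all genes there, 19.8% were called higher and 17.5% lower. Sox21, a SoxB2 gene, had a mean of 39.2 ± 14.3 CPM in adenoma and 5.83 ± 5.03 in crypt cells (2.77 ± 0.43, edgeR adjusted p = 7.06e-06). Sox5 (2.80 ± 0.45) and Sox13 (1.55 ± 0.24), of the SoxD group, were higher and Sox6 of the same group lower (-0.86 ± 0.30, adjusted p = 0.0280). Sox12, the third SoxC gene, was higher as well (2.22 ± 0.47, adjusted p = 0.000408), so all SoxC genes were higher in adenoma cells. In tuft cells Sox5 was the 1 gene called, at 4.08 ± 0.60, and also in secretory cells, at 1.62 ± 0.54. Of all genes, 23.5% were called in tuft and 28.2% in secretory over crypt cells. In endothelial cells 2 were called higher and 2 lower than in fibroblasts, where 9.22% of all genes were higher and 12% lower. Sox7, the third SoxF gene, had 103 endothelial UMIs and none in fibroblasts (edgeR adjusted p = 2.44e-07), Sox13 was higher by 2.27 ± 0.47, and Sox5 and Sox6 had no endothelial UMI.

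The other fixed lists describe the same cells. Over all genes the shares called higher and lower were 19.8% and 17.5% in adenoma over crypt and 15.6% and 12.6% in secretory over crypt. They were 11.1% and 12.4% in tuft over crypt and 9.22% and 12% in endothelial over fibroblast cells. Of 14 crypt and Wnt response genes, 8 were higher and 1 lower in adenoma than in crypt cells (median 1.496, against 0.02 over all genes), among them Tnfrsf19 (3.72 ± 0.43), Tcf7 (2.99 ± 0.30), Zbtb7c (2.83 ± 0.40) and the Wnt target Sp5 (2.54 ± 0.31), with all 4 adjusted p under 0.05 in edgeR. The adenoma gate itself asked for Wnt antagonists and the Wnt target Prox1, and the crypt gate barred them. The selection of cells and these counts are therefore not independent. In secretory cells 6 of these 14 were higher than in crypt cells and none lower, where 15.6% of all genes were higher and where 240 of 547 cells had an adenoma marker UMI, whose part in these counts was not tested. In tuft cells none was higher and 1 lower, Ccnd2 (-2.20 ± 0.28). In endothelial cells 1 was higher and 2 were lower than in fibroblasts, a share near the 21.2% of all genes called there. Of 13 fate genes, 8 were tested. In secretory cells 4 were higher and none lower, Atoh1, the secretory master factor, going from a mean of 0.708 CPM in crypt cells to 71.2. In tuft cells 5 were higher and 1 was lower, with the tuft factor Pou2f3 at 0.142 in crypt and 156 in tuft cells and Spib at 0.451 and 258. In adenoma cells only Dll1, a Notch ligand, was called, and it was lower (-1.92 ± 0.31). Between endothelial cells and fibroblasts 1 fate gene was called in each direction.

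Of 16 vessel genes, 15 were tested, and 13 were higher and 1 lower in endothelial cells than in fibroblasts (median 3.46 against -0.10 over all genes). Over all genes, 9.22% were higher and 12% lower there. Lyve1 and Flt4, both known from lymphatic vessels, had means of 315 and 119 CPM in endothelial cells and 1 UMI each in fibroblasts, and Erg had 105 UMIs against none. In adenoma over crypt cells 2 vessel genes were higher, Hey1 (3.54 ± 0.52) and Tek (3.11 ± 0.46), and 2 were lower, Lyve1 (-1.55 ± 0.48) and Ephb4 (-0.68 ± 0.19), and Hey1 stood at 18.8 ± 3.79 CPM in adenoma cells. Of all genes, 37.3% were called in that contrast. In secretory cells 3 of 15 were higher and 2 lower than in crypt cells, a share near the 28.2% of all genes called there, and in tuft cells 1 of 15 was higher, below the 23.5% called there. None of the genes of any list was called between genotypes in adenoma, crypt or endothelial cells, where no more than 2 of all genes were.

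As a description, genes were ranked by how closely their level followed each Sox gene over the 28 sums of class and library (Spearman's rho of log2 levels, 8631 or 8632 genes ranked), points that share libraries and differ in depth. Sox17 was most like Hhex (0.90), Nova2 (0.86), Podxl (0.83), Sema3f (0.83) and Palmd (0.82). Sox9 was most like Prom1 (0.92), Sec11c (0.90), Ehf (0.90), Ildr1 (0.90) and Fdft1 (0.89). Sox4 was followed most closely by Pgm2l1 (0.94), Atg101 (0.89), Dcun1d3 (0.89), Bub3 (0.88) and Ctxn1 (0.88), and Sox11 by Prss12 (0.86), Hebp2 (0.83), Slc1a4 (0.81), Scd1 (0.80) and Ctsl (0.79). For Sox18 they were Mest (0.85), Exoc3l (0.84), Erg (0.82), Prkch (0.79) and Robo4 (0.76). Among the 5 themselves, rho was 0.59 for Sox4 and Sox17, 0.53 for Sox4 and Sox9, 0.51 for Sox17 and Sox18, 0.44 for Sox11 and Sox17, and 0.18 for the SoxC pair Sox4 and Sox11.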

How the data were processed

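The authors deposited raw UMI counts per gene and barcode for each library, made per the study's methods with Cell Ranger 2.1.1 on mm10. The header of the kit 3 matrices names software 3.1.0, and the labels also name Seurat 3.1.1. All barcodes were deposited, so cells were selected here (at least 1000 UMIs, at most 20% mitochondrial).

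The Sox genes and the lists were chosen with earlier results of these data known, and gate thresholds were set from the marker distributions without Sox values. Differentiated and stromal gates asked for 3 or 4 different markers and a minimum UMI share, and 66 cells passing more than 1 gate were removed, with no doublet caller run. Secretory cells were goblet or Paneth cells. UMIs were summed per library and class. edgeR 4.0.16 (R 4.3.3; TMM, filterByExpr with a minimum count of 10, quasi-likelihood test, Benjamini-Hochberg over all genes tested, threshold 0.05) compared classes in 1 fit over 28 sums of 7 classes, with library as a block, and genotypes within a class with kit as a block. The labels tie the replicate number to the kit, and libraries of 1 kit deviated together (r = 0.20 over 12931 genes). Intervals are the log2 change ± 1.96 SE and are approximate. The script was tested on simulated counts. DESeq2 1.42.0, filters, gates, depth and left-out libraries were alternatives. Named genes were the 5 Sox genes, at most 4 called genes per list with the largest change, and the 5 genes most like each, ranked among genes with at least 20 CPM in at least 4 sums. Binomial intervals and limits from a count of 0 (3 counts) cover counting error only. One coding sequence is not reported here.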

Additional observations from a re-analysis of the deposited data

Results flagged for a closer look

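For Sox4, every pair of libraries moved one way in some classes and the opposite way in another, a difference between classes that was not tested. The log2 difference of VApcMinL minus ApcMin was 1.13 with kit 2 and 0.70 with kit 3 in secretory cells, 0.25 and 0.76 in tuft cells, and 0.40 and 0.084 in endothelial cells, whereas in fibroblasts it was -0.21 and -0.70. For Sox17 it was 1.03 and 0.57 in secretory cells and -0.63 and -0.95 in endothelial cells, and this difference was not tested either. Sox17 in tuft cells was at 1.84 and 1.16 but rests on 1 UMI in ApcMin replicate 1, and classes with 3 or fewer UMIs of a gene in any library were not considered. Adenoma markers moved with the secretory values, as 21 of 79 and 44 of 139 secretory cells had such a UMI in the ApcMin libraries and 71 of 130 and 104 of 199 in the VApcMinL libraries, and their part was not tested. The kit 3 pair compares 9 with 8 endothelial cells and 40 with 20 fibroblasts. Among classes with more than 3 UMIs in every library, no other of the 5 Sox genes had both pairs one way in 1 class and both the opposite way in another.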

How the results depend on the processing

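Of 290 values of the 5 genes under the alternatives, 254 kept their direction and, where a test was run, their side of the threshold. Genotype values with a library left out have no test and were judged by direction alone. Each such pair difference was entered for either library left out, so these entries are not separate checks. Sox4, Sox11 and Sox17 in adenoma over crypt cells, Sox9 in tuft over crypt cells, and Sox17 and Sox18 in endothelial cells over fibroblasts passed under all alternatives run, with Sox17 in adenoma cells between 2.62 and 4.68.

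Thinning every cell to 1000 UMIs left 804 genes called in adenoma over crypt, 961 in secretory over crypt, 655 in tuft over crypt and 650 in endothelial over fibroblast cells, and leaving out tuft cells with an adenoma marker left 506, from fewer cells. Leaving out single libraries gave 3474 to 4187, 2111 to 3005, 1729 to 2389 and 1770 to 2519 calls in the 4 comparisons. For genotype, calls in adenoma cells were 3 with DESeq2 and 1 each without the expression filter, with a floor of 2000 UMIs or with thinning. In crypt cells they were 62 without the filter, 8 with 1 more gate marker, 4 with thinning and 0 with no replicate block, where kit was dropped from the fit. In endothelial cells they were 29 without the filter, 15 with a mitochondrial limit of 10%, 1 each with a floor of 2000 UMIs or 1 more gate marker, and 0 with thinning or with no replicate block. The block changed no call of a Sox gene. Leaving out a library from a genotype comparison leaves 1 pair and no test.

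Sox9 passed without the expression filter in adenoma (adjusted p = 0.00808 in edgeR) and secretory cells (0.00850), as did Sox18 in adenoma cells (0.0163) and Sox4 in endothelial cells (0.0279). Sox17 in tuft cells lost its call with thinning (0.84, adjusted p = 0.443). Signs turned for Sox11 in adenoma cells between genotypes (0.024 with 1 more gate marker), for Sox4 in secretory cells (-0.18 with 1 more gate marker, -0.19 with thinning), for Sox9 in endothelial cells (-0.16 with thinning), and, without cells with an adenoma marker, for Sox4 (-1.23) and Sox17 (-0.15) in secretory and for Sox4 (-0.80), Sox17 (-2.70) and Sox11 (-6.82) in tuft cells. With 1 library left out the ranges crossed 0 between genotypes for Sox4 (-0.040 to 0.25), Sox9 (-0.79 to 1.17) and Sox17 (-0.72 to 0.25) in adenoma and Sox4 (-0.019 to 1.45) and Sox17 (-2.46 to 3.68) in crypt cells, and between classes for Sox18 in adenoma (-1.36 to 6.84), Sox4 in secretory (-0.087 to 0.33), Sox11 in tuft (-4.98 to 1.02) and Sox11 in endothelial cells (-2.36 to 0.29). Where a cause is not given it was not tested. Depth limits Sox11 in crypt and tuft cells, Sox18 outside endothelial cells, and the kit 3 endothelial values. All 6 Sox11 UMIs of tuft cells came from VApcMinL replicate 2.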

Other observations

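Sox RNA outside the classes compared was low in immune or red blood cells and higher in cells that passed no gate. In immune or red blood cells Sox4 was at 16.2, 29.4, 46.5 and 72.5 CPM and Sox17 at 18.1, 6.47, 19.2 and 57.0. Within them, myeloid cells had Sox4 at 33.0, 35.4, 56.8 and 73.6. In the 2149 cells of no gate Sox4 was at 212, 110, 115 and 329 and Sox17 at 130, 33.9, 54.9 and 192. In enterocytes Sox17 reached 96.9 CPM in 1 library among the 514 cells with a marker UMI and at most 8.32 among the 2457 without.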
